A study of Mus musculus with 4 samples.

Results

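The 7 genes described here, of 32287 mouse gene features measured, encode the carriers that clear glutamate, GABA and glycine from the space around synapses, with the enzyme and the carrier that turn captured glutamate into exported glutamine: Slc1a2, Slc1a3, Glul, Slc38a3, Slc6a11, Slc6a9 and Slc6a13. They were chosen by name, and their levels are given in marker-defined cell classes of the injured and the uninjured spinal cord. Cells were sorted for the tdTomato reporter of Cx30-tdTomato mice, a tamoxifen-inducible line built on connexin 30, a gap junction protein of astrocytes. All animals, the uninjured controls included, carried the reporter and had received an adeno-associated virus library of candidate enhancers intravenously. In the injured group the cord had then been contused, and segments of 5 mm around the lesion were taken 3 days later, while controls gave segments of the same level. Animals of each condition, 1 or 2 per sex by the study's description and of ages not given in the labels used here, were pooled into 1 gene expression library, so the conditions have no replicates. No test between them was possible, and every interval below is a 95% interval that covers counting error only.

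Cells with more than 500 and fewer than 50000 unique molecular identifiers (UMIs, 1 per captured RNA molecule) of genes were kept, which left 879 of 919 injured and all 4159 uninjured barcodes, with medians of 6816 and 3343 UMIs per cell; 7 barcodes occurred in both libraries. Clustering without the uptake genes gave 13 clusters, named from marker genes as 7 classes. The astrocyte-like class held 407 injured and 2826 uninjured cells, and 35 injured and 1133 uninjured cells stayed unnamed because markers of neurons stood beside those of astrocytes. The libraries differed in more than injury. The injured astrocyte-like cells came mostly from a cluster led by Gfap, Lcn2 and Timp1, with 336 of the 407 cells and 16 uninjured ones, whereas clusters led by Gm20713, by Cldn10 and by Gm26917 held 1337, 753 and 720 of the uninjured cells. By sex-linked transcripts 315 injured cells scored male and 250 female, against 2770 male and 2 female in the uninjured library, which goes against controls of both sexes. The ratios in astrocyte-like cells are therefore also given in male cells.

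Glutamate, GABA and glycine released by neurons are cleared from the space outside cells by carriers in the membranes of neurons and astrocytes, and for glutamate the astrocytes do most of this work. Inside astrocytes glutamine synthetase joins glutamate and ammonia to glutamine, which is handed back to neurons as the precursor of new transmitter. In the spinal cord, where GABA and glycine are both inhibitory transmitters, the glial carriers set how far these signals spread.

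The astrocyte-like cells held most of the uptake transcripts. Levels are given as CPM, the UMIs of a gene per 1000000 UMIs of all genes, both summed over the cells of a class. Relative to the other named classes pooled, 6 of 6 genes with at least 50 CPM in the injured library (all but Slc6a13) and 5 of 7 in the uninjured one were at least 2-fold higher in astrocyte-like cells, where 16.8% and 18.6% of all tested genes were. At least 2-fold lower were 0 of the 6 and, with Slc6a13, 1 of the 7, beside 22.8% and 32.5% of all tested genes. In the injured library Slc1a2 was 26.0-fold higher (24.1 to 28.0), Slc6a11 49.8-fold (37.9 to 66.6) and Slc6a9 20.05-fold (15.6 to 26.1). The pool was not the same mixture in both libraries. The classes with most UMIs in it were microglia-like and ependymal-like cells in the injured library and fibroblast-like cells in the uninjured one. These ratios are therefore not comparable between libraries. In the uninjured library the ratios of Slc1a2, Slc6a11 and Slc6a9 were 14.0 (12.4 to 15.8), 14.2 (11.2 to 18.4) and 12.1 (8.40 to 18.1). Slc1a3 and Slc6a13 departed from this pattern, and so did Glul and Slc38a3 in 1 class each, as the levels by class show.

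**Figure D1:**
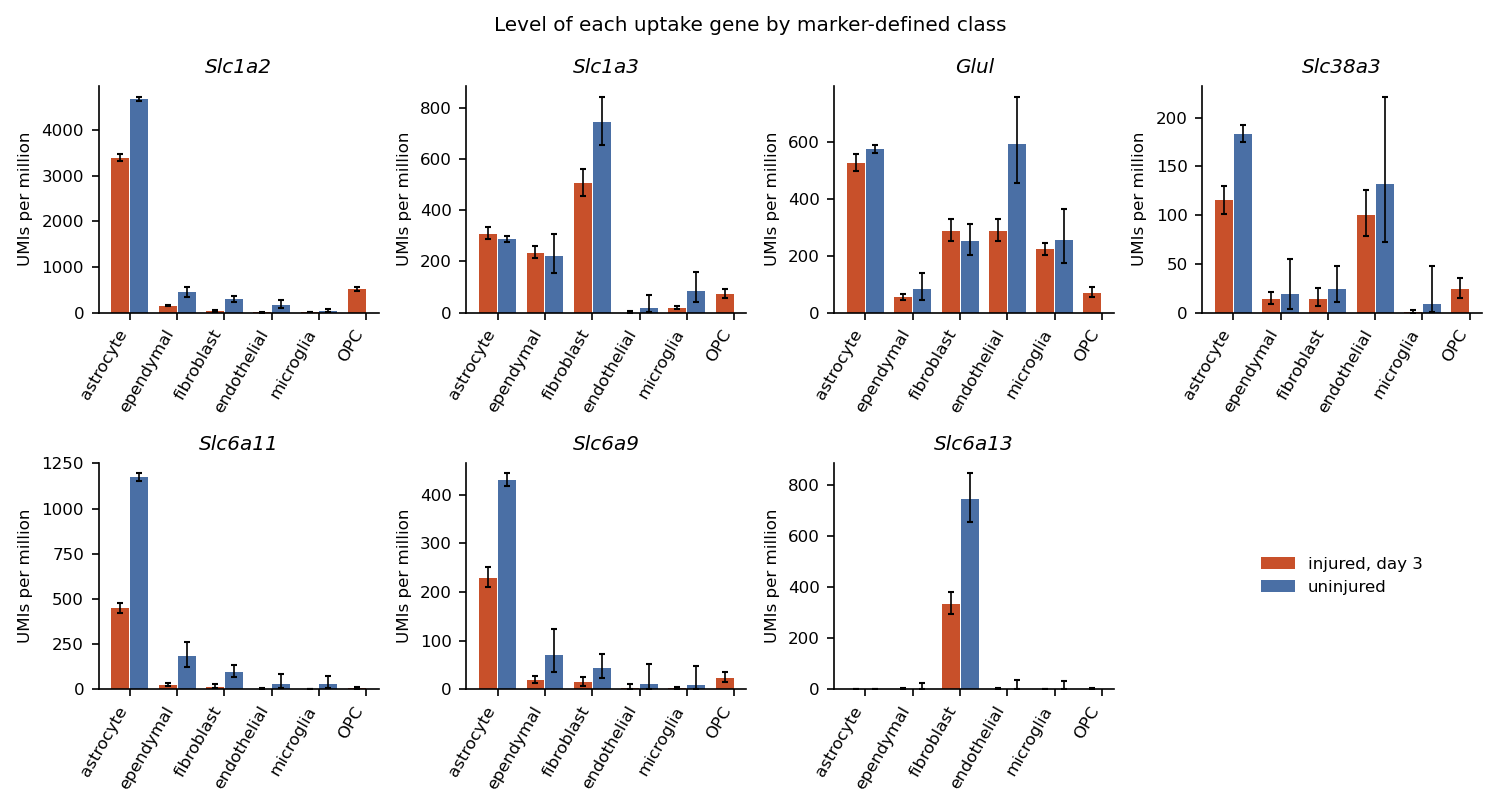
Level of each uptake gene (y axis, CPM, from 0, with a scale of its own in each panel) in each marker-defined class (x axis) of the injured (orange) and uninjured (blue) library, with 95% counting intervals; OPC-like cells reached 20 cells only in the injured library. Slc1a2, Slc6a11 and Slc6a9 stand high in astrocyte-like cells, Slc1a3 is highest in fibroblast-like cells, Glul is found in every class, and Slc6a13 only stands out in fibroblast-like cells.

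Of the glutamate carriers, Slc1a2 encodes GLT-1, which takes up most synaptic glutamate in the adult nervous system. Its level in astrocyte-like cells was 3399 CPM (3323 to 3476) in the injured and 4694 CPM (4652 to 4736) in the uninjured library, a ratio of 0.724 (0.707 to 0.742) or -0.47 on the log2 scale. Next in order stood the OPC-like (oligodendrocyte precursor) cells of the injured library with 513 CPM and ependymal-like cells with 152 CPM injured and 442 CPM uninjured. Microglia-like cells, which should lack the astrocyte carriers, had 9.52 CPM injured and 34.2 CPM uninjured, and their 4 uninjured UMIs show how few molecules carry the lowest values. Slc1a2 was detected in 86.2% of injured (82.5 to 89.4) and 99.5% of uninjured (99.1 to 99.7) astrocyte-like cells, and in 11.1% and 12.9% of microglia-like cells, whose median depths were 14070.5 and 3169 UMIs against 3701 and 3243 for the astrocyte-like cells. With every cell thinned to 1000 UMIs, which left out 35 injured and 67 uninjured astrocyte-like cells, the shares were 74.5% and 97.8%. About 1 injured astrocyte-like cell in 4 thus yielded no Slc1a2 molecule at a depth where nearly all uninjured cells yielded one.

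Slc1a3 encodes GLAST, the glutamate carrier of astrocytes and of radial glia during development. It stood at 308 CPM (285 to 332) in injured and 287 CPM (277 to 298) in uninjured astrocyte-like cells, a ratio of 1.07 whose interval (0.986 to 1.17) includes 1. The gene was higher in fibroblast-like cells of both libraries, with 507 CPM (457 to 562) injured and 743 CPM (652 to 842) uninjured, a ratio of 0.683 (0.579 to 0.806). Ependymal-like cells followed at 234 and 221 CPM, and in the uninjured library they could not be told from astrocyte-like cells by counting. No UMI was seen in 70 injured endothelial-like cells, which allows a level of up to 4.01 CPM. Of the pair of glutamate carriers, therefore, Slc1a2 was lower in the injured astrocyte-like cells, and for Slc1a3 no difference was detectable between the libraries.

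Glul encodes glutamine synthetase. In astrocyte-like cells it stood at 527 CPM (497 to 558) injured and 576 CPM (562 to 591) uninjured, a ratio of 0.914 (0.858 to 0.974), and the shares of cells with a UMI at 1000 UMIs were 36.6% and 39.0%. It was the most widespread of the 7 genes. Uninjured endothelial-like cells had 594 CPM (457 to 760), not separable from the astrocyte-like level, and injured ones 288 CPM, a ratio of 0.485 (0.365 to 0.653) from 26 uninjured and 70 injured cells. Microglia-like cells had 224 CPM injured and 257 CPM uninjured, and fibroblast-like cells 288 and 253 CPM, with intervals of both ratios that include 1. Among named classes with at least 20 cells, the lowest levels, 54.3 and 82.0 CPM, were those of ependymal-like cells.

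Slc38a3 encodes SNAT3, a glutamine carrier through which astrocytes release glutamine. Its astrocyte-like level was 115 CPM (101 to 130) injured and 184 CPM (175 to 192) uninjured, a ratio of 0.626 (0.548 to 0.714) or -0.67 on the log2 scale. Endothelial-like cells carried the gene at 100 CPM (78.8 to 125) injured and 132 CPM (72.2 to 222) uninjured, and neither level could be separated from that of the astrocyte-like cells of its library. All other named classes stood at or below 24.4 CPM. Over the alternatives of the processing the log2 ratio of Slc38a3 ran from -1.35 to -0.12. In the 71 injured astrocyte-like cells outside the cluster led by Gfap, Lcn2 and Timp1, its ratio to all uninjured ones was 0.919 (0.618 to 1.32). That of Glul was 0.664 (0.515 to 0.843), and the intervals overlap. Of these injured cells 55 were in the cluster led by Gm26917. Mitochondrial genes were also among its leading genes, and its median depths were 1663 UMIs injured and 1900.5 UMIs uninjured. Within that cluster the ratio of injured to uninjured cells was 0.571 (0.301 to 0.989) for Slc38a3 and 0.647 (0.407 to 0.982) for Glul.

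The genes of inhibitory transmitter uptake were further apart. Slc6a11 encodes GAT3, the GABA carrier of astrocyte processes. Its level was 448 CPM (421 to 477) in injured and 1174 CPM (1153 to 1195) in uninjured astrocyte-like cells, a ratio of 0.382 (0.358 to 0.407) or -1.39 on the log2 scale. At 1000 UMIs per cell a UMI was found in 30.6% of injured (26.0 to 35.6) and 66.2% of uninjured (64.4 to 68.0) astrocyte-like cells, against 0 of 121 injured microglia-like cells, which allows up to 2.48%, and 3.57% of 28 uninjured ones. In ependymal-like cells the level was 23.6 CPM injured and 183 CPM uninjured, a ratio of 0.129 (0.0780 to 0.216) from 40 and 29 UMIs. The gene was thus lower in the injured library in both named classes that held it in the uninjured cord at over 100 CPM.

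Slc6a9 encodes GlyT1, the glycine carrier of glia. It stood at 230 CPM (210 to 250) in injured and 432 CPM (419 to 445) in uninjured astrocyte-like cells, a ratio of 0.532 (0.485 to 0.583) or -0.91 on the log2 scale. The shares of cells with a UMI at 1000 UMIs were 15.1% (11.6 to 19.1) and 35.3% (33.5 to 37.1), against 0 of 121 and 0 of 28 microglia-like cells, which allows up to 2.48% and 10.7%. Ependymal-like cells had 18.9 CPM injured and 69.4 CPM uninjured, a ratio of 0.272 (0.134 to 0.598) that rests on 32 and 11 UMIs.

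Slc6a13 encodes GAT2, a GABA and taurine carrier of the leptomeninges that surround the cord. It was a gene of fibroblast-like cells, at 334 CPM (293 to 379) injured and 746 CPM (655 to 845) uninjured, a ratio of 0.448 (0.373 to 0.537) or -1.16 on the log2 scale. Injured astrocyte-like cells held 0 UMIs of it, which allows up to 1.34 CPM, and 2826 uninjured ones held 4. The fibroblast-like cells were not the same mixture in both libraries, since a cluster led by Apod, Dcn and Gsn with 48 cells was uninjured only. Within the cluster that both libraries shared, led by Cemip, Bgn and Igf2, Slc6a13 stood at 334 CPM in 43 injured cells and 1142 CPM in 47 uninjured cells, a ratio of 0.293 (0.238 to 0.361), and Slc1a3 at 507 and 912 CPM, a ratio of 0.556 (0.451 to 0.690). Both genes of the fibroblast-like cells were therefore lower in the injured library with and without the uninjured cluster. The median depths in the shared cluster were 11336 and 2457 UMIs per cell, and the part of depth in these ratios was not tested.

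In the other classes, the uptake genes with at least 50 CPM in a condition were at least 2-fold lower in the injured library or changed by less than 2-fold. In ependymal-like cells 3 of 5 (Slc1a2, Slc6a11 and Slc6a9) were at least 2-fold lower and 0 higher, beside 11.4% and 6.48% of all tested genes, and Slc1a2 stood at a ratio of 0.345 (0.264 to 0.456). In fibroblast-like cells 3 of 5 (Slc1a2, Slc6a11 and Slc6a13) were lower and 0 higher, beside 12.8% in each direction. The fibroblast-like Slc1a2 level of 34.7 CPM injured and 295 CPM uninjured came from 25 and 97 UMIs, in 6 of 43 and 16 of 95 cells. Slc6a11 had 10 and 31 UMIs there, in 2 of 43 and 7 of 95 cells. The levels of both genes thus rest on a minority of the fibroblast-like cells. Over the alternatives of the processing, the fibroblast-like log2 ratio ran from -4.79 to -0.35 for Slc1a2 and from -4.46 to -0.18 for Slc6a11. For Slc6a13 it ran from -3.38 to -0.88, so each of the 3 genes came within 2-fold under some alternative. In endothelial-like cells 2 of 3 were lower (Slc1a2 and Glul) and 0 higher, beside 11.4% and 7.06%. Slc1a2 had 2 and 18 UMIs in them, in 2 of 70 injured and 3 of 26 uninjured cells. In microglia-like cells 1 of 2 was lower (Slc1a3, with 33 and 10 UMIs) and 0 higher, beside 23.7% and 11.1%. The uninjured library held 2826 astrocyte-like cells and the injured library 407, and the levels of Slc1a2, Slc6a11 and Slc6a9 in ependymal-like and fibroblast-like cells were higher in the uninjured library. The part of free astrocyte RNA in these levels was not tested. In microglia-like and endothelial-like cells Slc6a11 and Slc6a9 had at most 3 UMIs in each library, too few to compare.

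Of the 6 uptake genes with at least 50 CPM in a condition, 1 (Slc6a11) was at least 2-fold lower and 0 were at least 2-fold higher, where 10.6% and 18.1% of 4246 tested genes were, so the count is no result about the list. The count lower was 0 at a finer clustering (Leiden resolution 1.0, Slc6a11 at -0.88) and 3 with every cell thinned to 1000 UMIs. The median log2 ratio of the 6 genes was -0.57 and that of all tested genes -0.06. In male cells, 126 injured and 1917 uninjured, the log2 ratios were -1.10 for Slc6a11, -0.68 for Slc6a9, -0.52 for Slc38a3, -0.41 for Slc1a2, -0.21 for Glul and 0.19 for Slc1a3, so the directions were those of all cells. A median of ratios scaling moved the median of all genes from -0.06 to 0.13 and Glul from -0.13 to 0.01. Such a scaling shifts all genes nearly alike, so it cannot decide whether Glul differs from that median.

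**Figure D2:**
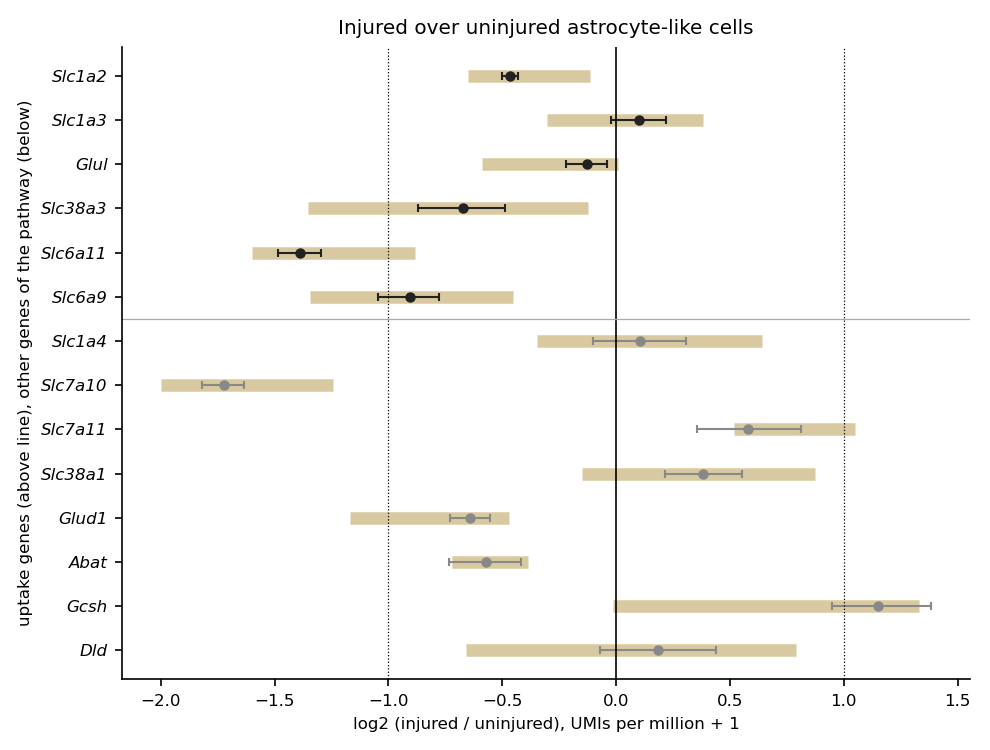
Log2 ratio of injured over uninjured astrocyte-like cells (x axis, CPM with 1 CPM added) for the 6 uptake genes with at least 50 CPM (black, above the line) and the other genes of the pathway at that level that the text names (grey, below). Whiskers are 95% counting intervals, pale bars span all alternatives of the processing, and dotted lines mark a 2-fold difference; the bars of Slc6a11, Slc6a9, Slc38a3 and Slc1a2 stay below 0, while those of Slc1a3 and Glul cross it.

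Other genes that mark astrocytes did not share one direction. The 10 astrocyte markers used to name clusters summed to 8881 CPM injured and 10299 CPM uninjured in astrocyte-like cells. Of them 4 were higher and 6 lower in the injured cells. As points of reference, Aldh1l1, a folate enzyme used to mark astrocytes, stood at 250 CPM injured and 181 CPM uninjured, the lineage factor Sox9 at 309 and 236 CPM, and the water channel gene Aqp4 at 2190 and 1378 CPM. Gja1, which encodes connexin 43, was lower at 1167 against 1432 CPM. Gfap, the filament gene of reactive astrocytes, stood at 2715 against 63.5 CPM, and Vim at 1840 against 8.49 CPM. The transcript of the tdTomato reporter used for sorting stood at 2197 against 408 CPM, a ratio of 5.38 (5.16 to 5.61). Whether this difference bears on the ratios of the uptake genes was not tested. Transcripts of other cells were present in the astrocyte-like cells of both libraries. The largest sum was that of the 8 OPC markers, at 586 CPM injured and 719 CPM uninjured, with 6 of 8 higher in the injured cells. The 8 oligodendrocyte markers summed to 324 and 260 CPM, with 4 of 8 higher, and the 7 fibroblast markers to 139 and 111 CPM, with 5 of 7 higher. The 8 microglial markers summed to 72.5 CPM injured and 6.93 CPM uninjured, with 7 of 8 higher and Csf1r at 0 in the injured cells. The 6 ependymal markers summed to 106 and 30.9 CPM, with Tmem212 and Ccdc153 at 0 in the injured cells. The 8 neuronal markers summed to 233 and 112 CPM, with 6 of 8 lower in the injured cells. The part of these transcripts in the ratios was not tested.

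Counted per cell, fewer of the genes were detected in injured cells. At 1000 UMIs, injured astrocyte-like cells held a UMI of 1.83 of the 6 genes on average and uninjured ones of 2.80. None of the 6 was found in 16.1% of 372 injured cells and in 0.435% of 2759 uninjured cells, and 4 or more were found in 7.80% and 23.8%. For Slc1a2, the best counted of them, the middle of the injured cells ran from 0 to 5 UMIs (lower and upper quartile, median 2) and that of the uninjured cells from 3 to 6 (median 4). The variance of its counts over cells was 2.79 times the mean in the injured and 1.49 times in the uninjured library, so the injured cells differed more among themselves. The same quotient was 1.66 and 1.12 for Slc6a11, and 1.74 and 1.21 for Slc1a3.

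**Figure D3:**
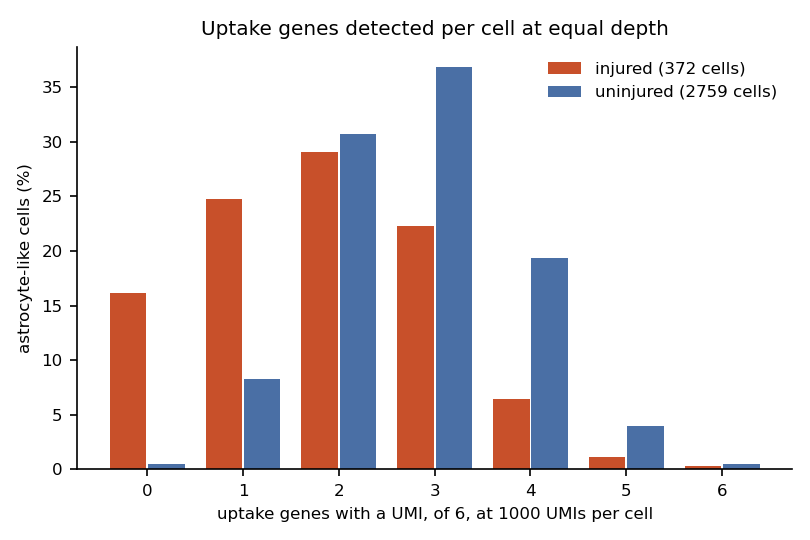
Share of astrocyte-like cells (y axis, percent) by the number of the 6 uptake genes with at least 1 UMI (x axis) after thinning every cell to 1000 UMIs, for 372 injured (orange) and 2759 uninjured (blue) cells. Injured cells pile up at lower numbers, with 16.1% at 0 against 0.435%.

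A finer clustering, again without the uptake genes, showed where these cells lay. At a Leiden resolution of 1.0 in place of 0.5, the injured astrocyte-like cells fell mainly into a cluster of 191 cells led by Dcaf17, Mnat1, Gfap and Serpina3n, a cluster of 142 cells led by Lcn2, Vgf, S100a6 and Hspb1, and 30 cells led by mitochondrial genes. This split was examined after the values of the coarser clusters were known and gets no test. The Lcn2-led cluster had an astrocyte marker score of 0.116, below the 0.2 asked for a name, although Aldh1l1 stood at 220 CPM and Sox9 at 337 CPM in it, against 278 and 307 CPM in the Dcaf17-led one. Its Vim level was 4032 CPM against 668 CPM, its Aqp4 level 1270 against 2921 CPM and its Gja1 level 382 against 1649 CPM, while Gfap was close, at 3060 and 2690 CPM. Median depths were 3526 and 5035 UMIs per cell.

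Of the 6 uptake genes, 5 were at least 2-fold lower in the Lcn2-led than in the Dcaf17-led cells and 0 were at least 2-fold higher, beside 23.3% and 20.4% of 4380 tested genes. Slc6a11 stood at 125 CPM (102 to 152) in the Lcn2-led cells and at 640 CPM (596 to 686) in the Dcaf17-led cells, a ratio of 0.195 (0.157 to 0.241). Slc6a9 stood at 76.7 and 320 CPM, a ratio of 0.240 (0.180 to 0.314), and Slc38a3 at 50.8 and 149 CPM, a ratio of 0.340 (0.236 to 0.479). Both glutamate carriers shared this direction. Slc1a2 was at 1794 CPM (1702 to 1888) against 4360 CPM (4245 to 4477), a ratio of 0.411 (0.388 to 0.436), and Slc1a3 at 194 against 392 CPM, a ratio of 0.496 (0.412 to 0.595). For Glul the interval of the ratio included 1, at 521 CPM (473 to 573) and 552 CPM (512 to 595), a ratio of 0.944 (0.834 to 1.07).

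Set beside all uninjured astrocyte-like cells, the Dcaf17-led cells were nearer to them. Their ratios were 0.929 (0.903 to 0.955) for Slc1a2, 1.36 (1.24 to 1.501) for Slc1a3, 0.958 (0.884 to 1.04) for Glul and 0.813 (0.695 to 0.945) for Slc38a3. Lower levels remained for Slc6a11, with a ratio of 0.545 (0.506 to 0.585), and for Slc6a9, with 0.742 (0.668 to 0.822). In the Lcn2-led cells the ratios were 0.106 (0.0866 to 0.129) for Slc6a11, 0.178 (0.136 to 0.228) for Slc6a9, 0.276 (0.198 to 0.376) for Slc38a3, 0.382 (0.362 to 0.403) for Slc1a2, 0.677 (0.572 to 0.795) for Slc1a3 and 0.904 (0.817 to 0.998) for Glul. Slc6a11 was the furthest from the uninjured level in both clusters, and Slc1a3 lay above it in one and below it in the other. The 30 cells led by mitochondrial genes were shallow, at a median of 1560 UMIs, with 33 UMIs of Slc1a2 and 0 of Slc1a3 in all.

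No finer cluster of the uninjured astrocyte-like cells stood as low as the Lcn2-led cells in Slc6a11, Slc6a9, Slc38a3 or Slc1a2. Over their 8 finer clusters of at least 20 cells, Slc6a11 ran from 703 to 1237 CPM, Slc6a9 from 369 to 494 CPM and Slc1a2 from 3367 to 5059 CPM. The lowest Slc6a11 and Slc1a2 values were those of 94 cells led by mitochondrial genes, and without them Slc6a11 ran from 1042 CPM and Slc1a2 from 4345 CPM. Glul varied more among uninjured clusters than between the libraries, from 264 CPM in cells led by Prkaa2 to 777 CPM in cells led by Hes5, Phgdh and Hopx. In the uninjured cord a Gfap UMI went with little difference in Slc6a11 and Slc1a2. In 441 astrocyte-like cells with one, Slc6a11 stood at 1181 CPM against 1173 CPM in 2385 cells without (ratio 1.01, 0.962 to 1.05), and Slc1a2 at 4861 against 4655 CPM (ratio 1.04, 1.02 to 1.07). Slc1a3 was higher in the cells with one, at 329 against 277 CPM (ratio 1.18, 1.08 to 1.29). For Glul, Slc38a3 and Slc6a9 the intervals of the ratio included 1. Median depths were 4055 and 3113 UMIs per cell.

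**Figure D4:**
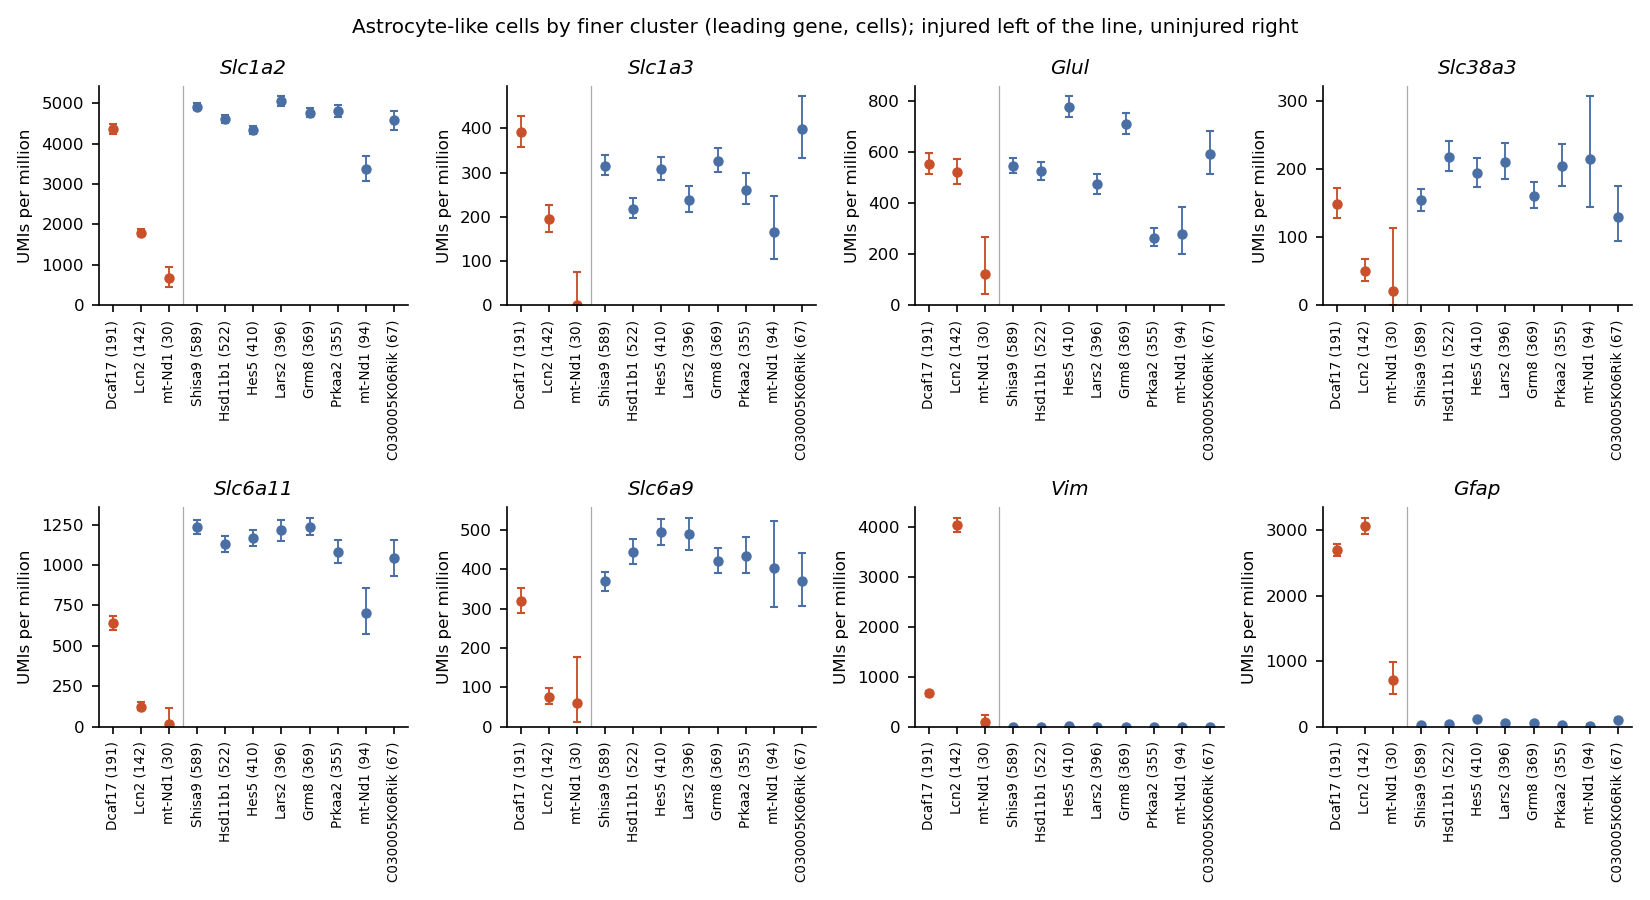
Level of the 6 uptake genes and of Vim and Gfap (y axis, CPM, from 0) in finer clusters of injured (orange, left of the line) and uninjured (blue, right) astrocyte-like cells, named by leading gene with the number of cells, with 95% counting intervals. The Lcn2-led injured cells are low in Slc1a2, Slc1a3, Slc38a3, Slc6a11 and Slc6a9 and high in Vim, and their Glul level is that of the Dcaf17-led cells.

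Injured cells could also be told apart by the transcripts of Lcn2, an iron-binding acute phase protein, and Timp1, a protease inhibitor. In 175 injured astrocyte-like cells with a UMI of either gene, Slc6a11 stood at 353 CPM, against 584 CPM in 232 cells with neither, a ratio of 0.604 (0.532 to 0.685). Both levels lay below the uninjured 1174 CPM, at ratios of 0.300 (0.273 to 0.330) and 0.497 (0.455 to 0.542). Slc1a2 differed little between them, at 3308 and 3528 CPM, and for Slc1a3, Glul, Slc38a3 and Slc6a9 the intervals of the ratio included 1. Detection of these transcripts depends on depth, with medians of 4838 and 2716 UMIs per cell. Only the cluster led by Gm26917 held 20 or more astrocyte-like cells of each library. Mitochondrial genes were among its leading genes, and it was shallow, with medians of 1663 injured and 1900.5 uninjured UMIs per cell. In this cluster the ratio of 55 injured to 720 uninjured cells was 0.334 (0.235 to 0.460) for Slc6a11, 0.430 (0.265 to 0.662) for Slc6a9 and 0.570 (0.505 to 0.642) for Slc1a2. In the same cells it was 0.647 (0.407 to 0.982) for Glul, from 23 and 549 UMIs, and 0.571 (0.301 to 0.989) for Slc38a3, from 13 and 352 UMIs.

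Of 32 other genes of transmitter uptake, metabolism and release, 9 reached 50 CPM in astrocyte-like cells. Of these, 1 was at least 2-fold lower and 1 at least 2-fold higher, beside 10.6% and 18.1% of all tested genes. The counts are therefore no result about these genes. Their median log2 ratio was 0.11 and that of all tested genes -0.06. Among the other carriers, Slc7a10, which encodes the small neutral amino acid exchanger Asc-1 and moves glycine and serine, stood at 467 CPM injured and 1545 CPM uninjured, a ratio of 0.302 (0.284 to 0.322). It thus lay on the side of Slc6a11 and Slc6a9. Slc7a11, the cystine and glutamate exchanger xCT, lay on the other side, at 96.3 and 64.1 CPM, a ratio of 1.502 (1.28 to 1.75), and the neutral amino acid carrier gene Slc1a4 was level, with a ratio of 1.08 (0.933 to 1.24). Slc38a1, a glutamine carrier gene, had a ratio of 1.30 (1.16 to 1.47).

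Among the genes of transmitter breakdown with at least 50 CPM, Glud1 and Abat were lower and Gcsh was higher in the injured cells. For Dld no difference was detectable. Glud1, glutamate dehydrogenase, stood at 536 CPM injured and 835 CPM uninjured, a ratio of 0.641 (0.603 to 0.681), and Abat, GABA transaminase, at 169 and 252 CPM, a ratio of 0.672 (0.601 to 0.748). Of the glycine cleavage system, Gcsh, its hydrogen carrier protein, was at 115 against 51.2 CPM, a ratio of 2.25 (1.93 to 2.61). Dld, its dehydrogenase, was at 71.6 against 62.8 CPM, a ratio of 1.14 whose interval (0.953 to 1.36) includes 1. Gldc, the enzyme that starts the cleavage, stood at 23.3 CPM in both. The 6 genes of neuronal synthesis and vesicular loading (Gad1, Gad2, Slc17a6, Slc17a7, Slc17a8 and Slc32a1) stayed at or below 3.32 CPM in the astrocyte-like cells of both libraries.

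Across 11 groups of class and condition with at least 20 cells, the genes with levels most like those of each uptake gene were named by Pearson's r. This is a description over few groups that share libraries. For Slc6a11 they were Mgat4c (Pearson's r = 0.99), Acsbg1 (0.97) and Fgfr3 (0.96), for Slc1a2 Gpr37l1, Atp1b2 and Gpc5 (each 0.98), and for Slc6a9 Ctnna3, Trpm3 and again Gpc5 (0.97, 0.96 and 0.96). Acsbg1 and Fgfr3 were among the markers used to name the astrocyte-like class, so their likeness to Slc6a11 was partly set by the naming. Slc38a3 went with Arhgef12 (0.97), Epha4 (0.95) and Shroom2 (0.93), and Slc1a3 with Bmpr1a (0.93), Mdk (0.92) and Mir99ahg (0.91). Glul went with Castor1 (0.93), Slc3a2 (0.85) and Ccnl2 (0.84). Slc6a13 went with Ccl11, Abca8a and Slc6a20a (each at least 0.99). Mgat4c, the gene nearest to Slc6a11, stood at 703 CPM in injured and 2198 CPM in uninjured astrocyte-like cells.

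The genes lie on 6 chromosomes of the mouse genome (GRCm38, GENCODE M21), and all are protein coding. Slc1a2 occupies chr2:102658659-102790784 (plus strand), Slc1a3 chr15:8634124-8710764 (minus), Glul chr1:153899944-153909723 (plus), Slc38a3 chr9:107650634-107669530 (minus) and Slc6a9 chr4:117834506-117875198 (plus). Slc6a11 at chr6:114131241-114249952 and Slc6a13 at chr6:121300227-121337733, both on the plus strand, share a chromosome. Promoter windows from RefSeq (GRCm38.p6), 250 bases before to 50 after a start, were at hand for 6 of the 7 genes and not for Slc38a3. The 250 bases before the start are shown for Slc6a11, the gene with the largest difference, and for Glul, the gene that was level between injured clusters, with matches to the motifs searched in capitals.
Slc6a11, chr6:114130991-114131240, plus strand: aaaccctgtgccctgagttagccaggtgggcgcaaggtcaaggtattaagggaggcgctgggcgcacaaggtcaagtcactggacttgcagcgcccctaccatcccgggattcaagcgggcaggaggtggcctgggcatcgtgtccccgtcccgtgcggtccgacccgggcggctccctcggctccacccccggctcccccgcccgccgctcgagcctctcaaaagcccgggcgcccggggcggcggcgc
Glul, chr1:153899679-153899928, plus strand: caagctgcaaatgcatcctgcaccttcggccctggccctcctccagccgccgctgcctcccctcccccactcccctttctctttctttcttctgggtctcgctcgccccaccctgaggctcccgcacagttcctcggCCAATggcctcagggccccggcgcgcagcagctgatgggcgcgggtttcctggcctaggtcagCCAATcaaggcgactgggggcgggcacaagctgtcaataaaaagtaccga
Both windows differ in base composition and in motifs. G and C made up 72.3% of the 300-base Slc6a11 window, which held no match on either strand to the AP-1 motif TGANTCA, to the palindromic NFI site, to the SOX motif AACAAT, to the letters CCAAT or to the TATA box motif TATAAA. The Glul window (64.3% G and C) held 2 CCAAT boxes, at bases 138 and 201, and no match to the others. The motifs do not overlap each other in these windows. A CCAAT box was present in 37.4% of 32851 mouse promoter windows of this length, a TATA box in 13.6%, SOX in 10.7%, AP-1 in 7.81% and NFI in 0.807%, so these matches are a description of the letters and not of bound sites.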

How the data were processed

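The authors deposited UMI counts per gene and cell for each condition (10x Genomics 3' v3.1 chemistry, Cell Ranger 8.0.1 on mm10 per the submitters' processing notes, 7.1.0 in the matrix header), with 23 enhancer barcode features not used here. The filter of more than 500 and fewer than 50000 gene UMIs removed 40 injured and 0 uninjured barcodes, and doublets were kept. In scanpy 1.11.5, counts were scaled to 10000 per cell and logged, and 2000 variable genes without the uptake, pathway and reporter genes gave 15 principal components, 15 neighbours and Leiden clusters (resolution 0.5). A cluster was named by its highest marker score, if over 0.2, with 3 markers in 10% of cells and no more markers of another class than of its own among its 10 leading genes (Nefm, a neuronal marker, left 845 cells with astrocyte markers unnamed), and, as added after seeing the data, no second class above 50% of that score. CPM were computed from summed counts, ratios on the log2 scale with 1 CPM added, for genes at 50 CPM or more in a condition. Intervals were exact Poisson (levels), Clopper-Pearson (shares) or conditional binomial (ratios), and a count of 0 allows 3 counts over the group. The 7 uptake genes, the 32 pathway genes, the markers and the rule for genes of like pattern (the 3 highest Pearson's r per gene) were chosen with earlier results of these data known. The libraries held 8499672 injured and 15543460 uninjured gene UMIs in kept cells. With 1 pooled library per condition, no p-value was computed. The values of 1 pathway gene are not reported here.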

Additional observations from a re-analysis of the deposited data

How the results depend on the processing

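No paired analysis was possible because a single library stands for each condition, so nothing was tested. Each ratio of an uptake gene in astrocyte-like cells was recomputed under 16 alternatives, 2 of them chosen after seeing the data (leaving out the cluster led by Gfap, Lcn2 and Timp1, and counting the Lcn2-led cluster at resolution 1.0). The log2 ratio ran from -1.60 to -0.88 for Slc6a11, from -1.35 to -0.45 for Slc6a9, from -1.35 to -0.12 for Slc38a3, from -0.65 to -0.12 for Slc1a2, from -0.59 to 0.01 for Glul and from -0.30 to 0.38 for Slc1a3, so 4 genes kept their direction and the last 2 did not. The number of uptake genes at least 2-fold lower was 0 at Leiden resolution 1.0, where the 142 Lcn2-led cells leave the class and Slc6a11 is at -0.88. It was 2 in cells with an Aldh1l1 UMI, 3 with cells thinned to 1000 UMIs and 2 with cells weighted equally. With the Lcn2-led cells counted at resolution 1.0, it was 1 and Slc6a11 stood at -1.37. The number of pathway genes at least 2-fold lower was 2 in cells with an Aldh1l1 UMI, with unnamed clusters counted, with thinned cells, with equal weights and without the cluster led by Gfap. The number at least 2-fold higher was 0 with unnamed clusters counted, in male cells, without the highest 5% of Scrublet scores and without the cluster led by Gfap, where 71 injured cells remain and Gcsh turned to -0.013. Apart from resolution 1.0, the cause of these moves was not tested. In fibroblast-like cells, Slc6a13 ran from -3.38 to -0.88 and Slc1a3 from -1.92 to -0.52. There Slc1a2 ran from -4.79 to -0.35 and Slc6a11 from -4.46 to -0.18, while Glul crossed 0, from -1.25 to 0.58. Over all results and alternatives, 948 values stayed within their counting interval or count, 300 moved beyond it, and of values past 2-fold 1 (Gcsh) changed sign. Among values under 2-fold, Slc1a3, Glul, Dld, Slc1a4 and Slc38a1 also crossed 0 in astrocyte-like cells. With 1 library per condition the spread between animals is unknown, sex differs between the libraries, and fewer than 35 uninjured ependymal-like, endothelial-like or microglia-like cells leave wide intervals.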
